A study of Homo sapiens with 16 samples.

Results

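The 24 h response of A549 cells to TGF-beta was taken from 4 of the 16 RNA-seq libraries of a time course: replicates 1 and 2 at 24 h, set against replicates 1 and 2 at 0 h. A549 is an established human line from a lung adenocarcinoma, labelled as alveolar basal epithelial, and the labels describe all 16 libraries as TGF-beta induced epithelial-mesenchymal transition (EMT). The other 12 libraries came from 6, 12, 36, 48, 72 and 96 h, in duplicate, and enter here through the shared estimate of the spread and through the comparison of 24 h with 6 h and 12 h. The 24 h cultures had TGF-beta for 24 h and the 0 h cultures are the start of the course. The sources used here give neither isoform nor dose of TGF-beta. Untreated cultures at 24 h are not analysed here, so 24 h of TGF-beta and 24 h more in culture cannot be told apart. Nothing in the labels says that the replicates were separate cultures, so the p-values measure the spread between these libraries, which may be technical.

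TGF-beta is a secreted cytokine, held latent in the matrix by binding proteins, that joins a type II and a type I receptor kinase. The type I receptor phosphorylates the receptor SMADs, which enter the nucleus with SMAD4 and change transcription, and some of their targets feed back on the pathway. In epithelial cells prolonged signalling is known to lower E-cadherin and other junction genes and to raise matrix, integrin and actin-binding genes, the change called EMT, for which A549 cells are a common model.

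All levels are TPM, the length-adjusted share of a gene among a library's transcripts, after 6 abundant small non-coding RNAs were removed and each library was rescaled to the same total. The removed RNAs held 52.1 and 56.9% of the TPM at 24 h and 51.8 and 51.8% at 0 h. TPM keep no read totals, so the depth behind a value is unknown. Genes listed at 0 numbered 30519 and 30950 at 24 h and 30029 and 30138 at 0 h. Of 14 markers of alveolar type 2 and other lung epithelial cells, 10 stayed under 1 TPM in all 4 libraries. Among these was the surfactant gene SFTPC (0 and 0.116 TPM at 24 h, against 0.394 and 0.228 TPM at 0 h). LPCAT1 had 62.9 and 58.29 TPM at 24 h, against 65.15 and 54.37 TPM at 0 h. ABCA3 had 17.24 and 14.46 TPM at 24 h, against 19.47 and 17.08 TPM at 0 h. NAPSA and AGER were low but above 1 TPM in all 4 libraries. The epithelial keratins KRT8 and KRT18 were abundant, with KRT18 at 2592 and 4197 TPM at 24 h, against 4244 and 5667 TPM at 0 h. In every sentence below replicate 1 is given before replicate 2.

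Between 24 h and 0 h, 618 genes rose and 423 fell out of 21216 tested, 2.91% and 1.99% of them. Among called genes averaging at least 5 TPM at either time, the largest rise was IGFL1, of the IGFL family of small secreted proteins. The largest fall among them was that of AGR2, a protein disulfide isomerase of mucus-secreting cells. Rises included 13 of 23 contractile and actin-binding genes, 9 of 18 genes of integrins and their adaptors and 4 of the type IV collagen genes. The type IV collagen genes COL4A5 and COL4A6 were not called. Falls included 23 of 35 targets of the oxidative-stress factor NRF2 and 5 of 15 epithelial surface and secretory genes. DNA replication, mitosis, ribosomal protein, respiratory chain and mitochondrially encoded genes gave no call. In bulk RNA, fewer cells of a type and less RNA per cell cannot be told apart.

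The test was limma on log2(TPM + 1), paired by replicate number, with Benjamini-Hochberg adjustment over all tested genes and a call at an adjusted p under 0.05. A fold change is the difference of these log2 values, 24 h minus 0 h, given ± its standard error (SE), and understates the change of low genes. At least a 2-fold change was reached by 520 of the genes that rose and 334 of those that fell. All 1041 called genes moved the same way in both replicate pairs, and in 1035 of them the 24 h and 0 h libraries did not overlap. The calls were made from these same libraries, so this agreement, here and in each group below, is not separate support. Over all tested genes, both 24 h libraries lay above both 0 h libraries in 18.9% and below them in 30.3%. Without the pairing by replicate number, which the labels do not explain, 244 genes rose and 128 fell. An exact permutation test of a single gene with 2 libraries against 2 cannot go below p = 0.333, so the calls rest on the spread shared over genes and times. Scaling by the trimmed mean of M values (TMM) gave 69.4% higher against 59.4% in the main analysis, and the TPM as deposited, small RNAs included, gave 49.3% higher.

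**Figure D1:**
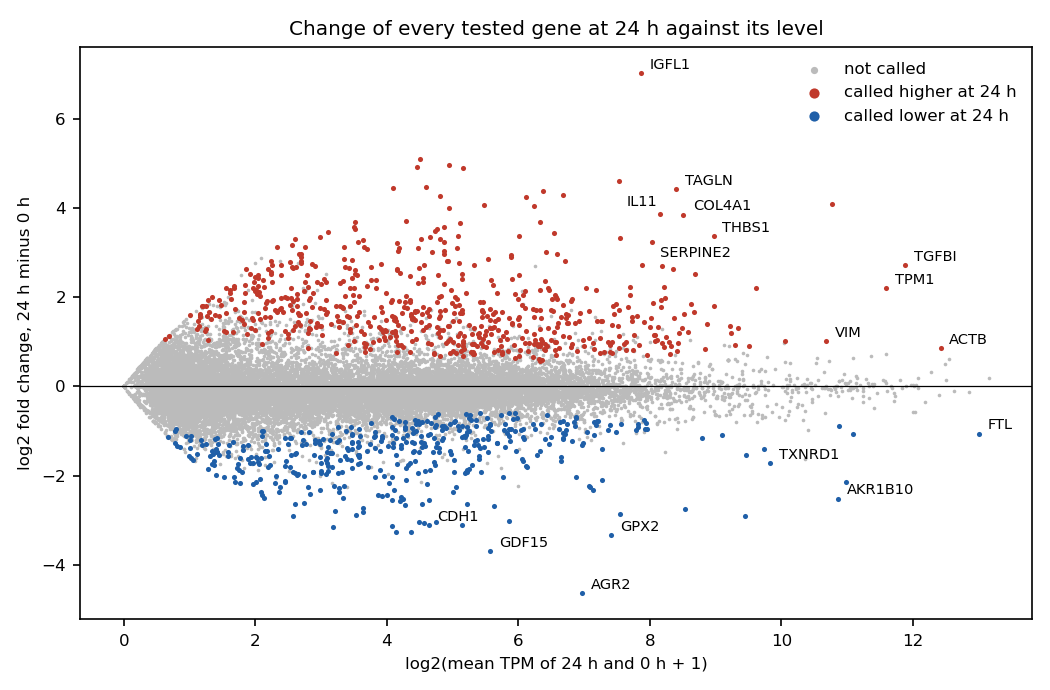
Difference between 24 h and 0 h against level for the 21216 tested genes. The x axis is log2 of the mean TPM + 1 over the 4 libraries and the y axis is the log2 fold change, 24 h minus 0 h. Coloured points are the 618 genes that rose and the 423 that fell, and grey points were not called; called genes are found at low and high levels alike.

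**Figure D2:**
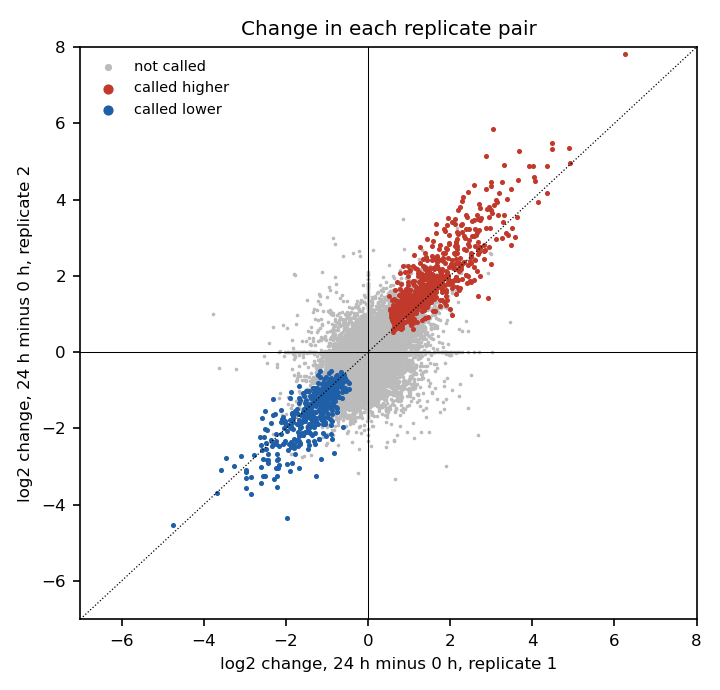
Log2 fold change in replicate 2 (y axis) against replicate 1 (x axis), each 24 h minus 0 h. Every coloured point, a called gene, lies in the lower left or upper right of the plot, so all 1041 moved the same way in both pairs. The calls were made from these same values, so this is not separate support.

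The count depended on each library, and most on 24 h replicate 2. Without 24 h replicate 2 the counts were 111 higher and 51 lower, without 24 h replicate 1 they were 347 and 168, without 0 h replicate 1 they were 230 and 121, and without 0 h replicate 2 they were 230 and 97. No gene changed direction with its call in any of these fits. A call held in all 4 fits for 110 genes that rose and 48 that fell, and this is said below for each such gene that a group's account names; the other calls it names were lost under at least 1 omission. The 4 fits keep the pairing by replicate number, so a call held in all 4 can still be lost without it. That was so for CDH1, CDH2, FN1, COL1A1, COL5A1, TGM2, MMP2, JAG1 and ALDH3A1, among others. Counts for a gene group under the 4 omissions always come in the same order. They are given with 24 h replicate 1 removed first, then 24 h replicate 2, 0 h replicate 1 and last 0 h replicate 2. Every group is a list of known members, chosen with earlier results of these data known, so its count is a description and not a test. The count of calls is set beside the 2.91% and 1.99% over all genes. The median log2 fold change is set beside the all-gene median of -0.09.

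**Figure D3:**
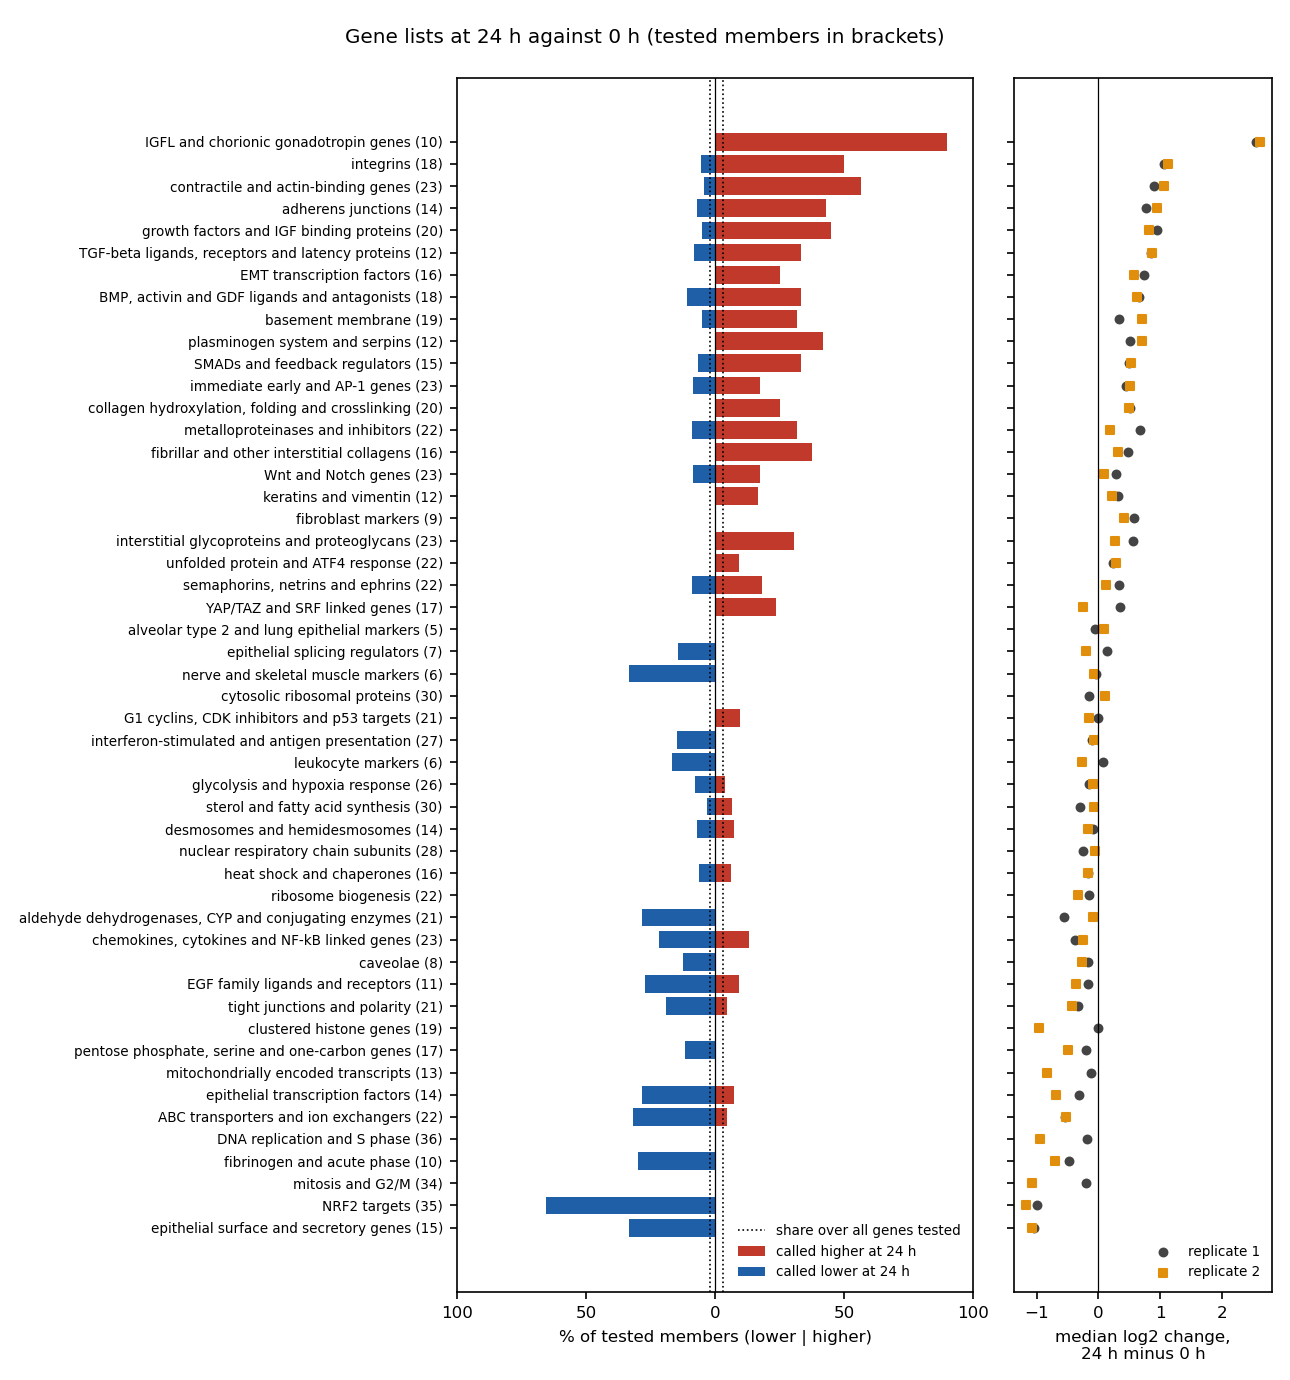
Gene groups with at least 5 tested members, chosen with earlier results of these data known. On the left, bars give the percentage of each group called higher or lower at 24 h, with dotted lines at the shares over all tested genes. On the right, the points are the median log2 fold change of the group in each replicate pair; the IGFL and chorionic gonadotropin group has the largest share of rises (9 of 10) and the NRF2 targets the largest share of falls (23 of 35).

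Of the TGF-beta ligands, receptors and latency proteins, 4 of 12 rose and 1 fell, with a median log2 fold change of 0.82. TGFBR1, the type I receptor, stood at 265 and 208 TPM at 24 h, against 64.4 and 41.2 TPM at 0 h. Its level rose by 2.17 ± 0.32 log2 units (adjusted p = 0.00277). The type II receptor TGFBR2 had 41.8 and 38.7 TPM at 24 h, against 77.9 and 94.3 TPM at 0 h, lower in both 24 h libraries but not called (log2 fold change -1.07 ± 0.36, adjusted p = 0.131). TGFBR3, the co-receptor betaglycan, fell to 1.84 and 1.44 TPM at 24 h, against 8.49 and 10.99 TPM at 0 h (log2 fold change -2.02 ± 0.43, adjusted p = 0.0187). Of the 3 receptors, 1 rose, 1 fell and 1 was not called. The ligand gene TGFB1 had 68.9 and 43.6 TPM at 24 h, against 24.7 and 18.6 TPM at 0 h, and rose by 1.32 ± 0.26 log2 units (adjusted p = 0.0118), while TGFB2 had 154 and 136 TPM at 24 h, against 95.7 and 86.4 TPM at 0 h and was not called (adjusted p = 0.111). LTBP2 and LTBP3 belong to the latent TGF-beta binding protein family of matrix proteins, of which some, but not LTBP2, bind the latent cytokine. LTBP2 had 50.8 and 32.7 TPM at 24 h, against 16.9 and 8.27 TPM at 0 h, and rose by 1.70 ± 0.22 log2 units (adjusted p = 0.00144). LTBP3 had 142 and 81.6 TPM at 24 h, against 41.7 and 31.1 TPM at 0 h. This gene rose by 1.55 ± 0.30 log2 units (adjusted p = 0.0116). For each called gene of the group the 24 h and 0 h libraries were fully separated. The 4 rises became 3, 1, 2 and 4 under the 4 omissions, and only LTBP2 kept its call in all of them.

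SMADs and feedback regulators gave 5 rises and 1 fall out of 15. SMAD3, a receptor SMAD, had 60.5 and 63.96 TPM at 24 h, against 122 and 162 TPM at 0 h, and fell by 1.16 ± 0.24 log2 units (adjusted p = 0.015); SMAD2 and SMAD4 differed by -0.16 (adjusted p = 0.627) and 0.19 (adjusted p = 0.625) on the log2 scale and were not called. PMEPA1, a membrane protein that holds receptor SMADs away from the receptor, had 580.0 and 521 TPM at 24 h, against 152 and 50.4 TPM at 0 h, and rose by 2.64 ± 0.32 log2 units (adjusted p = 0.000873). Its relative LDLRAD4 had 40.2 and 61.7 TPM at 24 h, against 6.16 and 4.75 TPM at 0 h. It rose by 2.99 ± 0.51 log2 units (adjusted p = 0.00554). SKIL, a SMAD co-repressor, had 439 and 391 TPM at 24 h, against 128 and 96.5 TPM at 0 h, and rose by 1.89 ± 0.45 log2 units (adjusted p = 0.0344). The inhibitory SMAD7 had 62.1 and 52.8 TPM at 24 h, against 33.997 and 17.1 TPM at 0 h, and rose by 1.21 ± 0.27 log2 units (adjusted p = 0.0252), whereas the other inhibitory member, SMAD6, had 48.9 and 39.4 TPM at 24 h, against 55.6 and 61.7 TPM at 0 h and was not called. TGFB1I1 (Hic-5), a focal adhesion protein, rose by 1.17 ± 0.22 log2 units (adjusted p = 0.00941). All 4 called feedback genes had both 24 h libraries above both 0 h libraries. Under the omissions the 5 rises became 4, 1, 2 and 2, with PMEPA1 called in each, and the SMAD3 fall was lost in 3 of the 4.

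Among BMP, activin and GDF ligands and their antagonists, 6 of 18 rose and 2 fell. The BMP antagonists GREM1 and NOG were both higher: GREM1 had 29.4 and 20.4 TPM at 24 h, against 5.23 and 4.64 TPM at 0 h. Its level rose by 2.10 ± 0.31 log2 units (adjusted p = 0.00277). NOG had 7.397 and 4.16 TPM at 24 h, against 0.872 and 0.394 TPM at 0 h, and rose by 2.03 ± 0.29 log2 units (adjusted p = 0.00221). FSTL3, a follistatin relative that binds activins, had 210.0 and 245 TPM at 24 h, against 85.1 and 76.7 TPM at 0 h (log2 fold change 1.48 ± 0.31, adjusted p = 0.0165), and FSTL1 rose by 1.66 ± 0.24 log2 units (adjusted p = 0.00236). BMP1, a protease that trims procollagens despite its name, had 99.6 and 88.1 TPM at 24 h, against 37.8 and 26.8 TPM at 0 h (log2 fold change 1.53 ± 0.17, adjusted p = 0.000599), and the ligand gene BMP6 had 26.2 and 45.9 TPM at 24 h, against 6.16 and 6.18 TPM at 0 h (log2 fold change 2.32 ± 0.39, adjusted p = 0.00523). In all 6 the lower 24 h library was above the higher 0 h library. GREM1, NOG, BMP1 and both falls were called under all 4 omissions, where the group had 6, 3, 5 and 4 rises. GDF15, a stress-induced ligand, had 5.29 and 6.36 TPM at 24 h, against 80.03 and 94.9 TPM at 0 h. This gene fell by 3.70 ± 0.39 log2 units (adjusted p = 0.00042). INHBB, the activin beta-B subunit, had 1.53 and 2.74 TPM at 24 h, against 18.7 and 43.2 TPM at 0 h, and fell by 3.26 ± 0.36 log2 units (adjusted p = 0.000527). INHBA, the beta-A subunit, was low throughout, at 3.93 and 2.11 TPM at 24 h, against 0.187 and 0.0207 TPM at 0 h, and was not called (adjusted p = 0.299). None of the 4 ID genes, BMP-responsive inhibitors of differentiation, passed limma's threshold (4 at an unadjusted p under 0.05). ID1 had 230.1 and 319.5 TPM at 24 h, against 139 and 174 TPM at 0 h (adjusted p = 0.0855) and ID2 had 19.6 and 27.2 TPM at 24 h, against 50.8 and 54.04 TPM at 0 h (adjusted p = 0.0813).

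**Figure D4:**
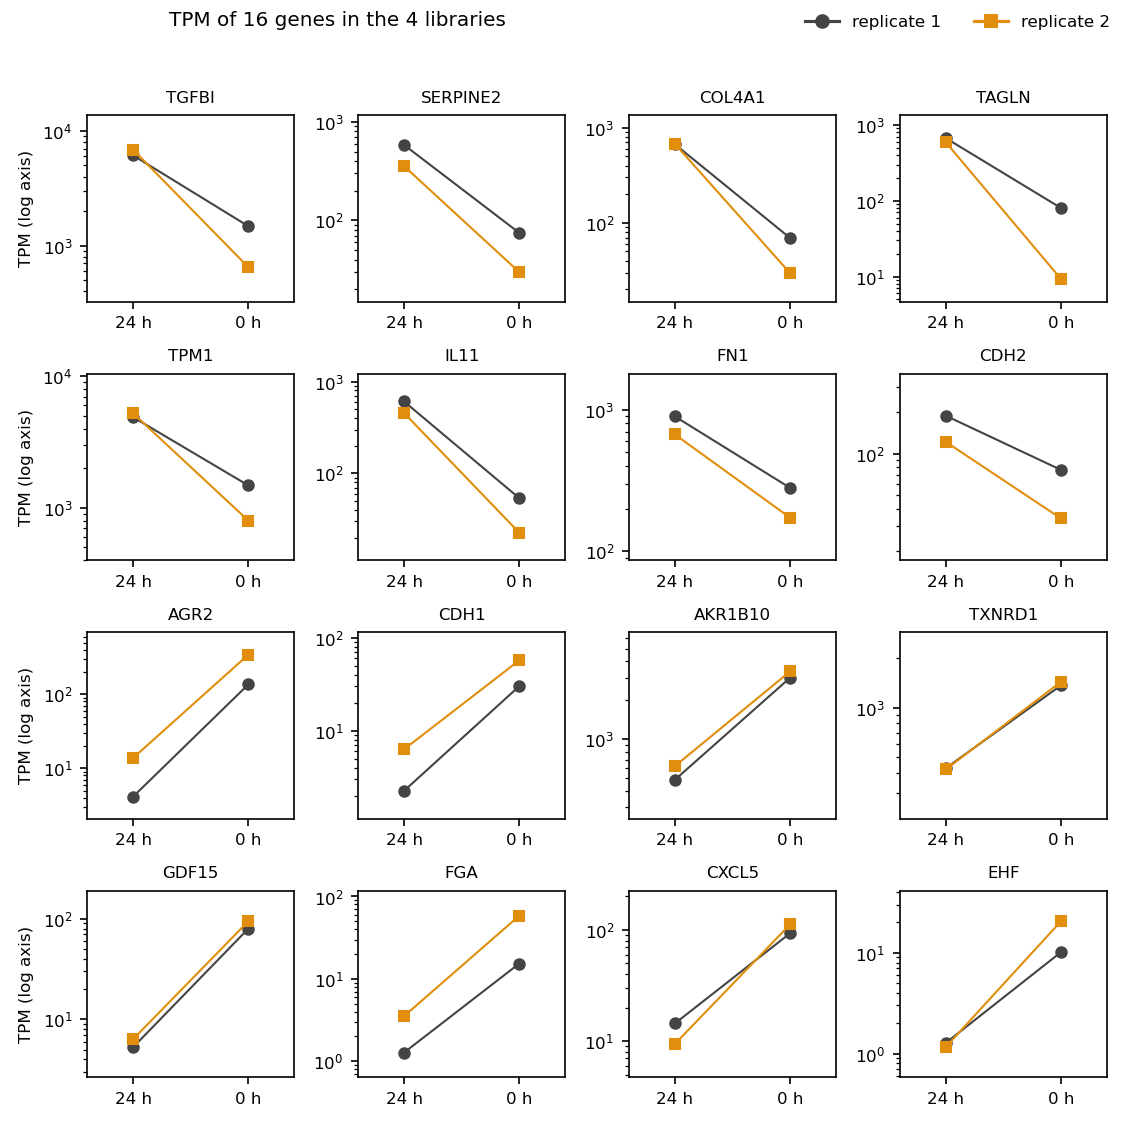
TPM in each of the 4 libraries, on a log axis, for 16 genes named in the text, with 24 h left of 0 h in each panel. Grey circles are replicate 1 and orange squares replicate 2, and a line joins the 2 times of a replicate. In each panel both lines run the same way and the 2 times do not overlap, for example TGFBI with 6116 and 6855 TPM at 24 h, against 1476 and 648 TPM at 0 h.

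Among 16 EMT transcription factors, 4 rose and none fell. SNAI1 (Snail), a zinc-finger repressor of E-cadherin, had 12.3 and 8.102 TPM at 24 h, against 1.85 and 0.643 TPM at 0 h. It rose by 2.35 ± 0.31 log2 units (adjusted p = 0.00139). ETS2 had 216 and 208 TPM at 24 h, against 60.2 and 33.4 TPM at 0 h, and rose by 2.22 ± 0.26 log2 units (adjusted p = 0.000773). The homeobox gene PRRX2 had 6.04 and 15.8 TPM at 24 h, against 0.809 and 0.995 TPM at 0 h, and rose by 2.52 ± 0.45 log2 units (adjusted p = 0.00699), and SOX4 rose by 0.90 ± 0.18 log2 units (adjusted p = 0.0145). SNAI1 and ETS2 kept their call under all 4 omissions, where the group had 3, 2, 3 and 2 rises. Of the other classical EMT factors, SNAI2 had 5.79 and 3.02 TPM at 24 h, against 2.08 and 0.104 TPM at 0 h, just short of a call (adjusted p = 0.052). ZEB1 had 50.6 and 43.3 TPM at 24 h, against 28.5 and 27.2 TPM at 0 h, higher in both 24 h libraries and not called (adjusted p = 0.391). ZEB2 and TWIST1 differed by 0.76 (adjusted p = 0.125) and -0.63 (adjusted p = 0.388) on the log2 scale, and HMGA2 by 1.02 (adjusted p = 0.212).

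Epithelial transcription factors gave 4 falls and 1 rise out of 14. SPDEF, an ETS factor of goblet cells, had 0.188 and 0.488 TPM at 24 h, against 5.98 and 13.1 TPM at 0 h. The transcript fell by 2.90 ± 0.32 log2 units (adjusted p = 0.000523). EHF, another epithelial ETS factor, had 1.27 and 1.16 TPM at 24 h, against 10.1 and 20.5 TPM at 0 h, and fell by 2.80 ± 0.56 log2 units (adjusted p = 0.014). ELF3 had 33.2 and 61.2 TPM at 24 h, against 193 and 252 TPM at 0 h. This gene fell by 2.27 ± 0.56 log2 units (adjusted p = 0.0384). The forkhead factor FOXA2 had 6.35 and 3.53 TPM at 24 h, against 20.2 and 18.5 TPM at 0 h (log2 fold change -1.82 ± 0.34, adjusted p = 0.00933), while FOXA1 differed by -0.29 (adjusted p = 0.662) and was not called. HNF4A, a nuclear receptor of endoderm, went the other way, with 102 and 119 TPM at 24 h, against 28.04 and 20.9 TPM at 0 h (log2 fold change 2.14 ± 0.38, adjusted p = 0.00738). SPDEF kept its call under all 4 omissions, and the 4 falls became 3, 1, 1 and 1.

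Cadherins changed in opposite directions. CDH1, E-cadherin of epithelial junctions, had 2.26 and 6.31 TPM at 24 h, against 30.1 and 57.1 TPM at 0 h, and fell by 3.12 ± 0.34 log2 units (adjusted p = 0.0005). CDH2, N-cadherin, had 187 and 121 TPM at 24 h, against 76.4 and 34.2 TPM at 0 h. It rose by 1.54 ± 0.16 log2 units (adjusted p = 0.00042). Both kept the call under all 4 omissions, and in neither did the 2 times overlap. Neither was called by limma without the replicate pairing (adjusted p = 0.0895 for CDH1 and 0.204 for CDH2). CDH11, CDH6 and CDH4 were higher too, at lower levels, with CDH11 at 19.2 and 6.76 TPM at 24 h, against 2.37 and 0.643 TPM at 0 h (log2 fold change 2.41 ± 0.56, adjusted p = 0.0301). Beta-catenin (CTNNB1), which links cadherins to the cytoskeleton and acts in Wnt signalling, had 401 and 427 TPM at 24 h, against 224 and 190.2 TPM at 0 h, and rose by 1.001 ± 0.16 log2 units (adjusted p = 0.0035), and alpha-catenin (CTNNA1) rose by 0.80 ± 0.16 log2 units (adjusted p = 0.0151). Adherens junction genes thus counted 6 rises and 1 fall out of 14, with 3, 1, 2 and 1 rises under the omissions, and the fall was that of CDH1 in each.

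Of 21 tight junction and polarity genes, 4 fell and 1 rose. CLDN4, a claudin, was the rise, with 31.03 and 59.7 TPM at 24 h, against 3.01 and 3.57 TPM at 0 h (log2 fold change 3.37 ± 0.49, adjusted p = 0.00231), and CLDN3, its relative, fell to 0.272 and 0.813 TPM at 24 h, against 3.57 and 4.62 TPM at 0 h (log2 fold change -1.74 ± 0.38, adjusted p = 0.0218). TJP3, a zonula occludens scaffold, had 0.376 and 0.139 TPM at 24 h, against 3.798 and 4.52 TPM at 0 h, and fell by 2.04 ± 0.35 log2 units (adjusted p = 0.00607). The polarity genes LLGL2 and PARD6B had 24 h libraries below both 0 h libraries: LLGL2 had 14.2 and 16.99 TPM at 24 h, against 55.9 and 60.9 TPM at 0 h. Its level fell by 1.84 ± 0.33 log2 units (adjusted p = 0.0075). PARD6B fell by 1.37 ± 0.22 log2 units (adjusted p = 0.00374). OCLN (occludin) had 15.3 and 16.7 TPM at 24 h, against 23.3 and 28.3 TPM at 0 h and was not called (adjusted p = 0.167). The 4 falls became 3, 0, 0 and 2 under the omissions, none of them left without 24 h replicate 2 or without 0 h replicate 1. Desmosome and hemidesmosome genes gave 1 rise, DSC2, and 1 fall, PPL (periplakin), out of 14, and both calls were lost under each omission. Desmoplakin (DSP) had 60.5 and 45.5 TPM at 24 h, against 55.5 and 48.6 TPM at 0 h.

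Keratins mostly stayed uncalled: KRT17 rose, with 6.35 and 9.26 TPM at 24 h, against 1.33 and 0 TPM at 0 h, and KRT7, KRT8, KRT18, KRT19 and KRT81 did not pass the test. KRT19 had 20.2 and 22.5 TPM at 24 h, against 105 and 104 TPM at 0 h, with separated times and no call (log2 fold change -2.23 ± 0.61, adjusted p = 0.0593). VIM, vimentin, the mesenchymal intermediate filament, had 2047 and 2349 TPM at 24 h, against 1148 and 1026 TPM at 0 h, and rose by 1.01 ± 0.19 log2 units (adjusted p = 0.00852); with TMM scaling its adjusted p was 0.0503. Epithelial surface and secretory genes gave 5 falls and no rise out of 15, with a median of -1.25. AGR2 had 4.14 and 13.8 TPM at 24 h, against 136 and 344 TPM at 0 h, and fell by 4.64 ± 0.46 log2 units (adjusted p = 0.000367). CEACAM6, a surface glycoprotein, had 4.66 and 13.98 TPM at 24 h, against 27.3 and 78.3 TPM at 0 h (log2 fold change -2.36 ± 0.36, adjusted p = 0.00325), and CEACAM5 fell by 1.57 ± 0.40 log2 units (adjusted p = 0.0456). The mucin genes MUC5AC and MUC5B fell as well, MUC5AC with 0.251 and 2.53 TPM at 24 h, against 3.63 and 29.7 TPM at 0 h (log2 fold change -2.51 ± 0.57, adjusted p = 0.0274). In all 5 the replicate 2 library was the higher of its pair at both times, so the 2 replicates differed in level but moved together. The 5 falls became 2, 2, 5 and 1 under the omissions, with AGR2 in each. EPCAM had 5.02 and 7.75 TPM at 24 h, against 8.95 and 9.37 TPM at 0 h and was not called (adjusted p = 0.609). RBM47, an RNA-binding protein of epithelial splicing, had 19.02 and 30.04 TPM at 24 h, against 57.7 and 68.1 TPM at 0 h and fell by 1.35 ± 0.30 log2 units (adjusted p = 0.0221), the single call among 7 splicing regulators.

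Basement membrane genes gave 6 rises and 1 fall out of 19, with type IV collagen, the network collagen of that sheet, at the front. COL4A1 had 670.4 and 677 TPM at 24 h, against 69.2 and 29.6 TPM at 0 h. This gene rose by 3.86 ± 0.39 log2 units (adjusted p = 0.000382). COL4A2 had 584 and 420.1 TPM at 24 h, against 105 and 53.7 TPM at 0 h, and rose by 2.70 ± 0.28 log2 units (adjusted p = 0.00042). The lower 24 h library of each exceeded the higher 0 h library several fold. COL4A1 and COL4A2 start head to head on chromosome 13, and the 126 bases between their start sites, which make up a shared promoter, are shown because both genes moved together (RefSeq, GRCh38.p14, chr13:110307158-110307283, plus strand).
COL4A1-COL4A2: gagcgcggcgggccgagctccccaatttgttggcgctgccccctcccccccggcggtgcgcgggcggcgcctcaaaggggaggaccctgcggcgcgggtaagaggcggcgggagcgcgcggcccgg
The other head-to-head pair, COL4A3 and COL4A4, was also higher, at lower levels: COL4A3 had 39.3 and 64.96 TPM at 24 h, against 11.6 and 11.9 TPM at 0 h (log2 fold change 2.01 ± 0.35, adjusted p = 0.00654) and COL4A4 rose by 2.30 ± 0.29 log2 units (adjusted p = 0.00104). The third pair did not follow. COL4A5 had 31.2 and 28.996 TPM at 24 h, against 46.3 and 40.03 TPM at 0 h and COL4A6 had 13.8 and 7.68 TPM at 24 h, against 26.1 and 16.8 TPM at 0 h, both lower at 24 h and not called (adjusted p = 0.288 and 0.228). Of the laminin chains, LAMA3, the alpha-3 chain of laminin-332, fell to 4.72 and 9.66 TPM at 24 h, against 16.9 and 24.4 TPM at 0 h (log2 fold change -1.45 ± 0.28, adjusted p = 0.0107), and the beta-3 chain, LAMB3, had 23.3 and 28.3 TPM at 24 h, against 18.2 and 13.4 TPM at 0 h and was not called (adjusted p = 0.396). SPARC, a collagen-binding matricellular protein, had 66.2 and 33.5 TPM at 24 h, against 14.4 and 2.05 TPM at 0 h (log2 fold change 2.81 ± 0.48, adjusted p = 0.00596). The group had 6, 4, 5 and 4 rises under the omissions, with COL4A1, COL4A2 and COL4A4 in each.

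Interstitial collagens counted 6 rises and no fall out of 16. COL22A1, a collagen of tissue junctions, had 46.6 and 36.4 TPM at 24 h, against 0.581 and 0.207 TPM at 0 h, and rose by 4.93 ± 0.34 log2 units (adjusted p = 4.98e-05). COL1A1, of the main fibrillar collagen, had 197 and 66.6 TPM at 24 h, against 8.63 and 2.74 TPM at 0 h, and rose by 4.27 ± 0.50 log2 units (adjusted p = 0.000737). COL5A1, which sets fibril diameter, had 265 and 91.1 TPM at 24 h, against 49.7 and 8.79 TPM at 0 h and rose by 2.81 ± 0.30 log2 units (adjusted p = 0.000435). COL22A1, COL1A1, COL5A1 and COL5A2 kept the call under all 4 omissions. In COL1A1 and COL5A1 replicate 1 was the higher library at both times. COL5A2, COL7A1 (anchoring fibrils) and COL27A1 also rose, COL5A2 with 318 and 302 TPM at 24 h, against 133 and 92.8 TPM at 0 h (log2 fold change 1.47 ± 0.203, adjusted p = 0.00169). COL3A1 stayed low, at 2.24 and 1.18 TPM at 24 h, against 1.68 and 0.456 TPM at 0 h, and was not called. The 6 rises became 4, 4, 4 and 4 under the omissions. Of 20 enzymes of collagen hydroxylation, folding and crosslinking, 5 rose. P4HA3, a prolyl 4-hydroxylase subunit, had 146 and 154 TPM at 24 h, against 29.9 and 10.1 TPM at 0 h. Its level rose by 3.03 ± 0.38 log2 units (adjusted p = 0.000989). TGM2, the tissue transglutaminase, had 679.7 and 302 TPM at 24 h, against 142 and 63.7 TPM at 0 h, and rose by 2.24 ± 0.18 log2 units (adjusted p = 0.000137). P4HA2, PLOD2 (lysyl hydroxylase) and LOXL4 rose too, by 1.25 (adjusted p = 0.00302), 0.99 (adjusted p = 0.0299) and 1.20 (adjusted p = 0.0358) on the log2 scale, while LOX itself stood at 4.03 and 2.39 TPM at 24 h, against 1.91 and 1.24 TPM at 0 h and was not called. The 5 rises became 3, 2, 4 and 3 under the omissions, with P4HA3 and TGM2 in each.

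Interstitial glycoproteins and proteoglycans gave 7 rises and no fall out of 23. TGFBI, a secreted integrin ligand named for its induction by TGF-beta, had the highest 24 h level after ACTB among the genes that rose, with 6116 and 6855 TPM at 24 h, against 1476 and 648 TPM at 0 h. This gene rose by 2.73 ± 0.36 log2 units (adjusted p = 0.00148). FN1, fibronectin, had 896 and 668 TPM at 24 h, against 280.3 and 173 TPM at 0 h, and rose by 1.81 ± 0.24 log2 units (adjusted p = 0.00141). THBS1, thrombospondin-1, which can activate latent TGF-beta, had 1101 and 719 TPM at 24 h, against 122 and 58.4 TPM at 0 h. It rose by 3.38 ± 0.30 log2 units (adjusted p = 0.000202). In each the 24 h libraries lay far above both 0 h libraries. TNFAIP6, a hyaluronan-binding protein, had 48.9 and 68.02 TPM at 24 h, against 1.25 and 0.539 TPM at 0 h, and rose by 4.98 ± 0.58 log2 units (adjusted p = 0.000623); VCAN, the proteoglycan versican, had 396 and 566 TPM at 24 h, against 101 and 139 TPM at 0 h (log2 fold change 1.98 ± 0.35, adjusted p = 0.00621). SPOCK1, a testican, had 174 and 54.9 TPM at 24 h, against 21.6 and 3.01 TPM at 0 h and rose by 3.38 ± 0.58 log2 units (adjusted p = 0.0055), and SRPX rose by 1.81 ± 0.29 log2 units (adjusted p = 0.00366). FN1, TGFBI, THBS1 and TNFAIP6 kept their calls under all 4 omissions, where the group had 6, 4, 6 and 4 rises. CD44, the hyaluronan receptor, had 270.2 and 187 TPM at 24 h, against 239 and 217 TPM at 0 h and the hyaluronan synthase HAS2 had 7.84 and 6.25 TPM at 24 h, against 5.002 and 6.05 TPM at 0 h; neither was called.

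Of 17 genes linked to YAP/TAZ and SRF, mechanosensitive transcriptional regulators, 4 rose. CTGF (CCN2), a matricellular protein, had 479.9 and 189 TPM at 24 h, against 58.3 and 14.2 TPM at 0 h, and rose by 3.33 ± 0.58 log2 units (adjusted p = 0.00637). F3, tissue factor, had 34.5 and 24.8 TPM at 24 h, against 5.604 and 2.59 TPM at 0 h, and rose by 2.64 ± 0.32 log2 units (adjusted p = 0.000811), with the call kept under all 4 omissions. CYR61, close kin to CTGF, had 180.1 and 83.3 TPM at 24 h, against 69.9 and 23.2 TPM at 0 h and was not called (log2 fold change 1.58 ± 0.51, adjusted p = 0.115). ANKRD1, AMOTL2 and AJUBA, also linked to YAP, were lower in both 24 h libraries and uncalled, ANKRD1 with 3.89 and 1.53 TPM at 24 h, against 8.8002 and 12.1 TPM at 0 h (adjusted p = 0.207). The 4 rises became 4, 1, 3 and 2 under the omissions.

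Integrins, the matrix receptors, and their adaptors gave 9 rises and 1 fall out of 18, with a median log2 fold change of 1.11. ITGA11, a collagen receptor subunit, had 74.9 and 49.5 TPM at 24 h, against 8.47 and 1.47 TPM at 0 h. The transcript rose by 3.68 ± 0.51 log2 units (adjusted p = 0.00169). The collagen-binding subunits ITGA1 and ITGA2 rose as well, ITGA1 with 23.7 and 11.4 TPM at 24 h, against 2.802 and 0.995 TPM at 0 h (log2 fold change 2.67 ± 0.59, adjusted p = 0.0221), and ITGA2 rose by 2.10 ± 0.42 log2 units (adjusted p = 0.0139). The alpha-v subunit and its partners, some of which can activate latent TGF-beta, moved in different directions. ITGAV, alpha-v itself, had 422 and 459 TPM at 24 h, against 161 and 101 TPM at 0 h, and rose by 1.78 ± 0.30 log2 units (adjusted p = 0.0051). ITGB6 had 58.8 and 56.9 TPM at 24 h, against 14.2 and 7.03 TPM at 0 h, and rose by 2.41 ± 0.35 log2 units (adjusted p = 0.00231), ITGB3 rose by 1.37 ± 0.25 log2 units (adjusted p = 0.00899), and ITGB8 fell to 0.6896 and 0.325 TPM at 24 h, against 3.05 and 3.88 TPM at 0 h (log2 fold change -1.57 ± 0.36, adjusted p = 0.0275). ITGB5 had 140.4 and 171 TPM at 24 h, against 198 and 217 TPM at 0 h and was not called (adjusted p = 0.269). ITGA5, of the fibronectin receptor, had 61.7 and 44.04 TPM at 24 h, against 18.9 and 13.4 TPM at 0 h (log2 fold change 1.65 ± 0.22, adjusted p = 0.00155). The 9 rises became 8, 2, 4 and 3 under the omissions, with ITGA11 and ITGA5 in each, and 5 in a fit without the replicate pairing.

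Contractile and actin-binding genes gave 13 rises and 1 fall out of 23. TAGLN (SM22-alpha), an actin-binding protein of smooth muscle, had 669.6 and 591 TPM at 24 h, against 80.2 and 9.31 TPM at 0 h. This gene rose by 4.44 ± 0.49 log2 units (adjusted p = 0.000527). TPM1, a tropomyosin, had 4880.5 and 5214 TPM at 24 h, against 1479 and 799 TPM at 0 h, and rose by 2.21 ± 0.44 log2 units (adjusted p = 0.0135). CNN1, calponin, had 10.1 and 24.9 TPM at 24 h, against 1.25 and 0.663 TPM at 0 h. It rose by 3.13 ± 0.44 log2 units (adjusted p = 0.00181). Both 24 h values of each gene were above both 0 h values; for TAGLN the 0 h replicates themselves differed widely. TNS1, PDLIM7, CALD1, VCL, ZYX and ACTN1, which act at focal adhesions and stress fibres, rose too. TNS1 had 64.2 and 52.5 TPM at 24 h, against 9.44 and 3.42 TPM at 0 h (log2 fold change 3.12 ± 0.51, adjusted p = 0.00462). PDLIM7 had 167 and 133 TPM at 24 h, against 51.97 and 27.2 TPM at 0 h (log2 fold change 1.96 ± 0.22, adjusted p = 0.000538). ACTN1 rose by 1.19 ± 0.27 log2 units (adjusted p = 0.0249). CNN2 had 175 and 120.2 TPM at 24 h, against 113 and 60.6 TPM at 0 h (log2 fold change 0.80 ± 0.21, adjusted p = 0.0464). ACTB, cytoplasmic beta-actin, had 7385 and 6786 TPM at 24 h, against 4260.5 and 3539.7 TPM at 0 h and rose by 0.87 ± 0.22 log2 units (adjusted p = 0.0409), a call that ended with TMM scaling (adjusted p = 0.226). ACTA2, smooth muscle alpha-actin, had 28.02 and 14.1 TPM at 24 h, against 27.9 and 24.6 TPM at 0 h, overlapping and uncalled (adjusted p = 0.773). MYLK, myosin light chain kinase, was the fall, with 12.6 and 16.1 TPM at 24 h, against 39.99 and 76.5 TPM at 0 h (log2 fold change -1.89 ± 0.25, adjusted p = 0.00139), and kept the call under all 4 omissions. The 13 rises became 12, 2, 5 and 6, with TAGLN and PDLIM7 in each, fewest without 24 h replicate 2, and 2 without the replicate pairing.

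SRF, with its co-activators, binds the CArG box, and many contractile genes are known for such a box near the start site. Among the 250 bases upstream of the start site in RefSeq promoters (GRCh38.p14), either strand, 2 of the 11 matched contractile genes that rose held a CArG box (18.2%), 3 of the 10 others did (30%), and 1.44% of all 27305 genes did. Over all genes called higher the share was 3.3%, and over all called lower 1.28%. TAGLN, which rose, had no entry among these promoters and was not searched. The windows of ACTN1 and CNN2, which rose, and of MYLK, which fell, are shown with the CArG box in capitals, since a box was present on both sides of the comparison. They lie at chr14:68977678-68977787 (minus strand, in 1 of 4 ACTN1 windows), chr19:1026469-1026578 (plus strand) and chr3:123620583-123620692 (minus strand). A match describes the letters and not a bound site.
ACTN1: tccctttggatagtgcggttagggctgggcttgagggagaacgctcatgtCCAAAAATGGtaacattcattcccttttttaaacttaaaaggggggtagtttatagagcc
CNN2: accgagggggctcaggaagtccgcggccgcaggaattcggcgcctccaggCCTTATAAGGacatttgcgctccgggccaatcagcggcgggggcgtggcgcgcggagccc
MYLK: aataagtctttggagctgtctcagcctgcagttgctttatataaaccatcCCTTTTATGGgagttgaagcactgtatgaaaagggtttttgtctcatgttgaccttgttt

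In the plasminogen system, the protease cascade that dissolves fibrin and matrix, 5 of 12 genes rose and none fell. SERPINE2, a serpin that inhibits plasminogen activators and thrombin, had 584 and 356 TPM at 24 h, against 74.7 and 29.8 TPM at 0 h. Its level rose by 3.24 ± 0.27 log2 units (adjusted p = 0.000141). The activator PLAU (urokinase) and its receptor PLAUR were higher along with this inhibitor: PLAU had 333 and 231 TPM at 24 h, against 79.3 and 71.9 TPM at 0 h (log2 fold change 1.86 ± 0.29, adjusted p = 0.0035), and PLAUR rose by 1.74 ± 0.24 log2 units (adjusted p = 0.00161). THBD, thrombomodulin, rose by 1.17 ± 0.23 log2 units (adjusted p = 0.0114). PLAT, the tissue activator, had 12.5 and 8.01 TPM at 24 h, against 6.89 and 5.64 TPM at 0 h and was not called. The 5 rises became 4, 2, 3 and 3 under the omissions, with SERPINE2 and PLAUR in each.

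Metalloproteinases and their inhibitors gave 7 rises and 2 falls out of 22. MMP2, a gelatinase, had 123 and 41.5 TPM at 24 h, against 8.82 and 0.871 TPM at 0 h, and rose by 4.08 ± 0.37 log2 units (adjusted p = 0.000202). TIMP2, its inhibitor and partner in activation, had 484 and 329.8 TPM at 24 h, against 73.1 and 47.8 TPM at 0 h, and rose by 2.74 ± 0.24 log2 units (adjusted p = 0.000202), and TIMP3 rose by 2.73 ± 0.38 log2 units (adjusted p = 0.00187), while TIMP1 had 116 and 141 TPM at 24 h, against 109 and 129.6 TPM at 0 h. ADAM19, a membrane protease, had 188 and 125 TPM at 24 h, against 11.5 and 3.28 TPM at 0 h. This gene rose by 4.40 ± 0.27 log2 units (adjusted p = 2.07e-05). MMP2, TIMP2 and ADAM19 were called under all 4 omissions, where the group had 6, 3, 5 and 5 rises and neither fall was called in any. MMP10, ADAMTS6 and ADAMTS15 rose at low levels, MMP10 with 4.47 and 7.104 TPM at 24 h, against 0.228 and 0.187 TPM at 0 h. MMP24 had 19.7 and 18.7 TPM at 24 h, against 52.97 and 55.01 TPM at 0 h (log2 fold change -1.44 ± 0.33, adjusted p = 0.0259), and ADAM15 fell by 0.59 ± 0.15 log2 units (adjusted p = 0.0431), a fall that TMM scaling ended (adjusted p = 0.286). MMP9 and MMP14 stayed within a few TPM and were not called. MMP7 had 13.8 and 188 TPM at 24 h, against 47.2 and 276 TPM at 0 h, set apart by replicate rather than by time.

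Of 11 EGF family genes, HBEGF rose and the ligand genes AREG, EREG and BTC fell. AREG, amphiregulin, had 5.02 and 4.597 TPM at 24 h, against 46.2 and 48.3 TPM at 0 h, and fell by 3.05 ± 0.63 log2 units (adjusted p = 0.0169). EREG, epiregulin, had 7.38 and 3.78 TPM at 24 h, against 44.9 and 32.9 TPM at 0 h. It fell by 2.64 ± 0.44 log2 units (adjusted p = 0.00513). HBEGF had 9.47 and 7.34 TPM at 24 h, against 3.01 and 1.202 TPM at 0 h, and rose by 1.65 ± 0.36 log2 units (adjusted p = 0.0221). No 24 h library of AREG or EREG came near a 0 h library. NRG1, neuregulin, had 488 and 326 TPM at 24 h, against 221 and 120.1 TPM at 0 h and was not called (adjusted p = 0.0619); EGFR and ERBB2 were not called. The 3 falls became 1, 0, 0 and 1 under the omissions, and HBEGF was called in 1 of them, without 24 h replicate 1.

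Chemokines, cytokines and NF-kB linked genes gave 3 rises and 5 falls out of 23. IL11, an IL-6 family cytokine of fibrosis, had 608 and 455 TPM at 24 h, against 53.7 and 22.6 TPM at 0 h. Its level rose by 3.87 ± 0.29 log2 units (adjusted p = 9.64e-05). IL32 had 40.2 and 26.7 TPM at 24 h, against 8.39 and 2.92 TPM at 0 h (log2 fold change 2.48 ± 0.28, adjusted p = 0.00061), and CCL2, a monocyte chemokine, had 54.1 and 83.6 TPM at 24 h, against 15.2 and 19.5 TPM at 0 h (log2 fold change 1.90 ± 0.38, adjusted p = 0.0136). IL11 and IL32 were called under all 4 omissions. The falls included the neutrophil chemokines CXCL5, CXCL1 and CXCL3. CXCL5 had 14.4 and 9.45 TPM at 24 h, against 93.2 and 112 TPM at 0 h, and fell by 3.02 ± 0.56 log2 units (adjusted p = 0.00915). CXCL1 fell by 2.56 ± 0.56 log2 units (adjusted p = 0.0221), CXCL3 fell by 1.92 ± 0.43 log2 units (adjusted p = 0.0248), and CXCL2 had 4.18 and 1.46 TPM at 24 h, against 17.97 and 14.6 TPM at 0 h and was not called (adjusted p = 0.105). CSF1, a macrophage growth factor, had 2.65 and 2.6002 TPM at 24 h, against 12.4 and 12.7 TPM at 0 h (log2 fold change -1.90 ± 0.31, adjusted p = 0.00421). IL8 (CXCL8) had 9.84 and 3.83 TPM at 24 h, against 18.6 and 7.898 TPM at 0 h, overlapping and uncalled. The 5 falls became 3, 0, 1 and 0 under the omissions and the 3 rises 2, 2, 2 and 2. The 3 fibrinogen chains fell together while the other 7 of that list, acute-phase and liver-type secreted proteins, gave no call. FGA had 1.27 and 3.53 TPM at 24 h, against 15.3 and 58.4 TPM at 0 h. This gene fell by 3.28 ± 0.37 log2 units (adjusted p = 0.000538). FGG had 1.57 and 6.59 TPM at 24 h, against 11.02 and 52.7 TPM at 0 h (log2 fold change -2.53 ± 0.32, adjusted p = 0.00115), and FGB fell by 1.73 ± 0.38 log2 units (adjusted p = 0.0214). Replicate 2 was higher than replicate 1 in all 3 at both times. FGA and FGG were called under all 4 omissions, and without the replicate pairing the list had 0 falls.

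Growth factors and IGF binding proteins gave 9 rises and 1 fall out of 20. PDGFB, a platelet-derived growth factor chain, had 67.7 and 54.1 TPM at 24 h, against 5.06 and 4.79 TPM at 0 h, and rose by 3.38 ± 0.55 log2 units (adjusted p = 0.00434). FGF2 had 158 and 145 TPM at 24 h, against 41.8 and 32.2 TPM at 0 h. It rose by 2.02 ± 0.32 log2 units (adjusted p = 0.00374). VEGFA, the angiogenic factor, had 108 and 108 TPM at 24 h, against 23.4 and 26.9 TPM at 0 h, and rose by 2.06 ± 0.53 log2 units (adjusted p = 0.0456). ANGPTL4, an inhibitor of lipoprotein lipase, had 164 and 119 TPM at 24 h, against 8.302 and 6.76 TPM at 0 h (log2 fold change 4.05 ± 0.79, adjusted p = 0.012). The binding proteins split. IGFBP7 had 676 and 709 TPM at 24 h, against 184 and 77.6 TPM at 0 h, and rose by 2.52 ± 0.38 log2 units (adjusted p = 0.00288); IGFBP5 rose by 2.11 ± 0.34 log2 units (adjusted p = 0.00416); IGFBP6 fell to 31.6 and 33.6 TPM at 24 h, against 92.5 and 88.2 TPM at 0 h (log2 fold change -1.44 ± 0.26, adjusted p = 0.00813); IGFBP3 and IGFBP4 were not called. The 9 rises became 7, 1, 3 and 7 under the omissions. The 1 left without 24 h replicate 2 was STC1, stanniocalcin-1, called in each, with 23.8 and 10.01 TPM at 24 h, against 5.27 and 2.13 TPM at 0 h (log2 fold change 1.90 ± 0.27, adjusted p = 0.00202).

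The IGFL genes, a cluster encoding small secreted proteins, and the chorionic gonadotropin beta genes rose in 9 of 10 tested members, with a median log2 fold change of 2.64. IGFL1 had 211 and 715 TPM at 24 h, against 1.76 and 2.16 TPM at 0 h. The transcript rose by 7.04 ± 0.63 log2 units (adjusted p = 0.000202). IGFL3 had 27.1 and 12.7 TPM at 24 h, against 1.29 and 0.187 TPM at 0 h (log2 fold change 3.58 ± 0.52, adjusted p = 0.00226), IGFL2 rose by 3.13 ± 0.36 log2 units (adjusted p = 0.000599), and IGFL4 rose by 1.26 ± 0.29 log2 units (adjusted p = 0.0264). CGB8 had 59.8 and 76.3 TPM at 24 h, against 1.72 and 0.912 TPM at 0 h, and rose by 4.91 ± 0.28 log2 units (adjusted p = 1.58e-05). CGB5 had 12.3 and 17.1 TPM at 24 h, against 0.581 and 0.249 TPM at 0 h (log2 fold change 3.47 ± 0.36, adjusted p = 0.00042). The CGB genes are near-identical copies, so the split of reads among CGB, CGB1, CGB2, CGB5, CGB7 and CGB8 is uncertain and their rises are not separate observations; the IGFL genes are also related to one another. Under the omissions the 9 rises became 6, 5, 5 and 6, with IGFL1, IGFL2, IGFL3, CGB5 and CGB8 in each.

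Wnt and Notch genes gave 4 rises and 2 falls out of 23. WNT5B, a non-canonical Wnt ligand, had 56.8 and 47.8 TPM at 24 h, against 2.45 and 1.16 TPM at 0 h. This gene rose by 4.28 ± 0.49 log2 units (adjusted p = 0.00061). The Notch ligand JAG1 had 212 and 104 TPM at 24 h, against 62.95 and 27.03 TPM at 0 h, and rose by 1.82 ± 0.23 log2 units (adjusted p = 0.00113), and HES1, a Notch target, had 42.8 and 27.6 TPM at 24 h, against 14.8 and 10.6 TPM at 0 h (log2 fold change 1.39 ± 0.21, adjusted p = 0.00286). WNT5B and JAG1 were called under all 4 omissions. DKK1, a Wnt antagonist, had 27.8 and 94.6 TPM at 24 h, against 147 and 345 TPM at 0 h, and fell by 2.11 ± 0.34 log2 units (adjusted p = 0.00423). RNF43, a ligase that removes Wnt receptors, had 1.34 and 3.58 TPM at 24 h, against 8.72 and 23.1 TPM at 0 h (log2 fold change -2.23 ± 0.42, adjusted p = 0.0102), and WNT7A rose, with 4.62 and 3.09 TPM at 24 h, against 0.08302 and 0 TPM at 0 h. The 4 rises became 3, 2, 3 and 3 and the 2 falls 1, 1, 0 and 1 under the omissions. Of 22 semaphorin, netrin and ephrin genes, which guide axons and cell positions, 4 rose and 2 fell. SEMA3C had 586 and 519.5 TPM at 24 h, against 196 and 159 TPM at 0 h. It rose by 1.64 ± 0.24 log2 units (adjusted p = 0.00254). The ephrin receptor EPHB2 had 171 and 127 TPM at 24 h, against 51.3 and 23.2 TPM at 0 h, and rose by 2.06 ± 0.23 log2 units (adjusted p = 0.000527). NRP2 and EFNA1 rose, EFNA1 not with TMM scaling (adjusted p = 0.0528), and NTN4 and SEMA3B fell, NTN4 with 19.5 and 27.3 TPM at 24 h, against 53.01 and 81.5 TPM at 0 h (log2 fold change -1.47 ± 0.29, adjusted p = 0.0132). SEMA3C and EPHB2 were called under all 4 omissions, which gave 2, 2, 2 and 2 rises and 0, 0, 1 and 0 falls.

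NRF2 is a transcription factor of oxidant defence that is known to be constitutively active in A549 cells, where its repressor KEAP1 is mutated. Of 35 tested NRF2 targets, 23 fell and none rose, and the median log2 fold change was -1.09. Their summed level was 15730 and 18920 TPM at 24 h, against 36530 and 40210 TPM at 0 h. NRF2 binds with a small MAF protein to the antioxidant response element, for which the core TGACNNNGC was searched on both strands of the 250 bases upstream of the start site. It was found for 4 of 14 matched targets that fell (28.6%). Of 8 matched targets that did not pass the test, 3 held it (37.5%, ME1, CBR1 and EPHX1). The share was 13.2% over all 27305 genes, 17.4% over all genes called higher and 16% over all called lower. Of the contractile genes, 3 of the 11 matched that rose held the core (27.3%), and 1 of the 10 others did. A share near that of the targets that fell was thus also found outside the NRF2 list. The 4 windows, of targets that fell, are shown with the core in capitals, read in the gene's direction (RefSeq, GRCh38.p14): chr1:93909431-93909514 (minus strand), chr12:104286880-104286988 (plus strand), chr14:64942809-64942917 (minus strand) and chr1:10398814-10398921 (plus strand). As printed, each core reads as its reverse complement.
GCLM: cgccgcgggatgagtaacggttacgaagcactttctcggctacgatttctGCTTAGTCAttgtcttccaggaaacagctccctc
TXNRD1: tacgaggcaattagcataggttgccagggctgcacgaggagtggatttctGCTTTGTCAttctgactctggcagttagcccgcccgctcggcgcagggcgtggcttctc
GPX2: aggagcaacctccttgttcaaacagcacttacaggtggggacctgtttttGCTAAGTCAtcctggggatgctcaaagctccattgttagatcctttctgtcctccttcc
PGD: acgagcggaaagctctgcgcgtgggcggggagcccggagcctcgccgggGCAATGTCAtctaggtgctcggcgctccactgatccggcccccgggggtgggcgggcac

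The glutathione and thioredoxin genes come first. GCLC and GCLM, the subunits that make the glutathione precursor, had clearly separated times. GCLC had 46.6 and 43.97 TPM at 24 h, against 187 and 188 TPM at 0 h. Its level fell by 2.02 ± 0.19 log2 units (adjusted p = 0.000221). GCLM had 39.4 and 24.7 TPM at 24 h, against 99.2 and 99.6 TPM at 0 h, and fell by 1.64 ± 0.22 log2 units (adjusted p = 0.00165). TXNRD1, thioredoxin reductase, had 427 and 419.9 TPM at 24 h, against 1364 and 1435 TPM at 0 h, and fell by 1.72 ± 0.19 log2 units (adjusted p = 0.000538), and its 2 replicates agreed closely at each time. GPX2, a glutathione peroxidase, had 11.1 and 53.8 TPM at 24 h, against 143 and 470.1 TPM at 0 h. This gene fell by 3.34 ± 0.56 log2 units (adjusted p = 0.00513). GSR, glutathione reductase, fell by 0.83 ± 0.13 log2 units (adjusted p = 0.00374), and SRXN1, sulfiredoxin, fell by 1.09 ± 0.24 log2 units (adjusted p = 0.0224). TXN, thioredoxin itself, had 507 and 769 TPM at 24 h, against 942 and 1118 TPM at 0 h and was not called (adjusted p = 0.0992). OSGIN1, an oxidative-stress growth inhibitor, had 3.93 and 3.99 TPM at 24 h, against 34.8 and 47.6 TPM at 0 h (log2 fold change -3.07 ± 0.51, adjusted p = 0.00465).

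The carbonyl and quinone reductases included some of the most abundant targets. AKR1B10, an aldo-keto reductase of retinal and lipid aldehydes, had 488 and 622 TPM at 24 h, against 2988 and 3343 TPM at 0 h, and fell by 2.52 ± 0.40 log2 units (adjusted p = 0.00365). AKR1C1 had 80.1 and 111 TPM at 24 h, against 557 and 729 TPM at 0 h (log2 fold change -2.74 ± 0.56, adjusted p = 0.0155), and AKR1C2 had 524 and 1018 TPM at 24 h, against 3134 and 3377 TPM at 0 h (log2 fold change -2.15 ± 0.54, adjusted p = 0.0409). AKR1C3 had 542 and 760.5 TPM at 24 h, against 1943 and 2005 TPM at 0 h and just missed the threshold (adjusted p = 0.051). The AKR1C genes are near-identical copies between which the counting can move reads. ALDH3A1, an aldehyde dehydrogenase, had 89.6 and 251 TPM at 24 h, against 774 and 1672 TPM at 0 h. It fell by 2.91 ± 0.43 log2 units (adjusted p = 0.00247). NQO1, the quinone reductase, had 1257 and 1369.9 TPM at 24 h, against 2483 and 2372 TPM at 0 h, and fell by 0.89 ± 0.22 log2 units (adjusted p = 0.042). For AKR1C2 and NQO1 the call ended with TMM scaling (adjusted p = 0.0827 and 0.272). ALDH3A2, CBR3 and PIR fell, ALDH3A2 with 80.3 and 85.5 TPM at 24 h, against 194 and 256 TPM at 0 h (log2 fold change -1.41 ± 0.19, adjusted p = 0.00139).

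Of the NADPH-producing enzymes, PGD had 403 and 526 TPM at 24 h, against 1068 and 1397 TPM at 0 h, and fell by 1.405 ± 0.197 log2 units (adjusted p = 0.00186). ME1, the malic enzyme, had 94.3 and 83.7 TPM at 24 h, against 97.96 and 85.4 TPM at 0 h and was not called. TKT and TALDO1, of the non-oxidative pentose phosphate branch, were not called. Ferritin light chain, FTL, had 4835 and 5889.5 TPM at 24 h, against 10597 and 11677 TPM at 0 h, and the heavy chain, FTH1, had 1769 and 1058 TPM at 24 h, against 3588 and 2297 TPM at 0 h. FTL fell by 1.06 ± 0.27 log2 units (adjusted p = 0.0481) and FTH1 fell by 1.07 ± 0.25 log2 units (adjusted p = 0.0289), and both calls ended with TMM scaling (adjusted p = 0.353 and 0.148). ABCC2, an export pump for conjugates, had 41.9 and 48.7 TPM at 24 h, against 202 and 264 TPM at 0 h (log2 fold change -2.33 ± 0.49, adjusted p = 0.0172). HMOX1, heme oxygenase, had 129 and 160.4 TPM at 24 h, against 146 and 131 TPM at 0 h. SLC7A11, the cystine transporter, had 73.01 and 75.8 TPM at 24 h, against 119 and 114 TPM at 0 h. PRDX1, a peroxiredoxin, had 1736 and 2626 TPM at 24 h, against 1564 and 1993 TPM at 0 h. These 3 were not called. The 23 falls became 13, 6, 7 and 10 under the omissions, 14 with TMM scaling and 7 without the replicate pairing. GCLC, GCLM, TXNRD1, ALDH3A1, ALDH3A2 and PGD were called under all 4 omissions.

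Among aldehyde dehydrogenases, CYP and conjugating enzymes, 6 of 21 fell and none rose. The CYP4F genes, related omega-hydroxylases of fatty acids, made up 3 of the 6. CYP4F3 had 1.19 and 3.48 TPM at 24 h, against 16.1 and 42.8 TPM at 0 h. Its level fell by 3.13 ± 0.36 log2 units (adjusted p = 0.00061). CYP4F11 had 2.28 and 2.32 TPM at 24 h, against 14.4 and 15.7 TPM at 0 h (log2 fold change -2.28 ± 0.30, adjusted p = 0.00145), and CYP4F12 fell by 2.64 ± 0.40 log2 units (adjusted p = 0.00319). CYP1B1, a monooxygenase induced by the aryl hydrocarbon receptor, had 5.64 and 9.01 TPM at 24 h, against 23.6 and 55.1 TPM at 0 h (log2 fold change -2.19 ± 0.27, adjusted p = 0.000985). ALDH1A1, among the most abundant transcripts of these cells, had 8499 and 10955 TPM at 24 h, against 8903 and 8071 TPM at 0 h, and CYP24A1, the vitamin D hydroxylase, had 1245 and 1290 TPM at 24 h, against 1376 and 1382 TPM at 0 h; neither was called. The 6 falls became 5, 3, 4 and 3 under the omissions, with CYP1B1, CYP4F3 and CYP4F11 in each. Of 22 ABC transporters and ion exchangers, 7 fell and 1 rose. CA12, a carbonic anhydrase, had 42.6 and 38.9 TPM at 24 h, against 200.1 and 462 TPM at 0 h, and fell by 2.87 ± 0.31 log2 units (adjusted p = 0.000518). ABCG2, a multidrug efflux pump, had 7.65 and 10.3 TPM at 24 h, against 27.1 and 47.1 TPM at 0 h (log2 fold change -1.90 ± 0.30, adjusted p = 0.00395), and SLC12A2, the sodium-potassium-chloride cotransporter, had 37.2 and 44.2 TPM at 24 h, against 83.3 and 153 TPM at 0 h (log2 fold change -1.45 ± 0.19, adjusted p = 0.00116). The rise was SLN, sarcolipin, a peptide that regulates the calcium pump of muscle, with 32.8 and 53.5 TPM at 24 h, against 0.145 and 0.332 TPM at 0 h (log2 fold change 5.12 ± 0.54, adjusted p = 0.00042). SLN, CA12 and SLC12A2 were called under all 4 omissions, where the 7 falls became 5, 2, 3 and 3.

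Of 30 sterol and fatty acid genes, STARD4 and ACLY rose and ELOVL6 fell; ACLY, ATP-citrate lyase, had 924 and 974 TPM at 24 h, against 575 and 447 TPM at 0 h (log2 fold change 0.90 ± 0.18, adjusted p = 0.0147). Of 26 glycolysis and hypoxia genes, SLC2A3 (GLUT3), a glucose transporter, rose, with 137 and 215 TPM at 24 h, against 40.4 and 48.7 TPM at 0 h (log2 fold change 1.93 ± 0.25, adjusted p = 0.00118), while ADM, adrenomedullin, and BNIP3 fell, ADM with 17.6 and 23.5 TPM at 24 h, against 76.3 and 96.7 TPM at 0 h (log2 fold change -2.02 ± 0.38, adjusted p = 0.01) and BNIP3 not with TMM scaling (adjusted p = 0.118). SLC2A1, GAPDH, LDHA and PKM were not called. Of 22 unfolded protein and ATF4 genes, HSPA5 (BiP) and MANF rose, MANF with 98.2 and 105 TPM at 24 h, against 50.8 and 53.04 TPM at 0 h (log2 fold change 0.95 ± 0.18, adjusted p = 0.0112). Among 16 heat shock genes, HSPB1 (HSP27), a small heat shock protein that binds actin, had 849 and 1752 TPM at 24 h, against 312 and 223 TPM at 0 h, and rose by 2.21 ± 0.34 log2 units (adjusted p = 0.00301), and HSPA4L fell. Of 23 immediate early genes, JUNB, IER3, SPRY4 and DUSP1 rose and DUSP4 and DUSP5 fell. JUNB, an AP-1 subunit, had 361 and 314 TPM at 24 h, against 97.1 and 51.4 TPM at 0 h (log2 fold change 2.24 ± 0.40, adjusted p = 0.00783). IER3, an early response gene, had 404 and 508 TPM at 24 h, against 117 and 118 TPM at 0 h (log2 fold change 1.93 ± 0.22, adjusted p = 0.000538). DUSP4, a MAP kinase phosphatase, had 30.6 and 30.1 TPM at 24 h, against 100.1 and 113 TPM at 0 h (log2 fold change -1.78 ± 0.24, adjusted p = 0.00155). DUSP1 was called although its libraries overlapped, with 429 and 165 TPM at 24 h, against 239 and 81.4 TPM at 0 h; the fit compares each replicate with its own 0 h library. SLC2A3, IER3 and DUSP4 were called under all 4 omissions, where immediate early genes had 2, 1, 1 and 1 rises and 1, 1, 1 and 1 falls. FOS had 61.6 and 1.95 TPM at 24 h, against 81.1 and 4.02 TPM at 0 h and EGR1 had 23.97 and 0.232 TPM at 24 h, against 18.7 and 0.207 TPM at 0 h, values that differed between replicates far more than between times.

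DNA replication and mitosis genes gave no call. None of 36 DNA replication genes and none of 34 mitosis genes passed limma's test, against 2.91% and 1.99% over all genes; at an unadjusted p under 0.05 the counts were 8 and 1. The median log2 fold change was -0.59 for replication, -0.19 in replicate 1 and -0.94 in replicate 2, and -0.63 for mitosis, -0.20 in replicate 1 and -1.07 in replicate 2. MKI67, a proliferation marker, had 103 and 34.2 TPM at 24 h, against 105 and 123 TPM at 0 h: only 24 h replicate 2 stood low. PCNA, the sliding clamp, had 438 and 357 TPM at 24 h, against 554 and 686 TPM at 0 h, below both 0 h libraries in both replicates and not called (adjusted p = 0.201). CDKN1A (p21), a cyclin-dependent kinase inhibitor, had 127 and 133 TPM at 24 h, against 106 and 58.6 TPM at 0 h (adjusted p = 0.281), and MYC had 133 and 57.6 TPM at 24 h, against 96.6 and 71.2 TPM at 0 h (adjusted p = 0.957). Of 21 G1 and p53-target genes, GADD45B and TP53I3 rose, TP53I3 with 338 and 363 TPM at 24 h, against 156 and 106 TPM at 0 h (log2 fold change 1.44 ± 0.22, adjusted p = 0.00325), and these rises became 1, 0, 1 and 0 under the omissions.

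No member was called among 13 mitochondrially encoded transcripts, 19 histone genes, 28 nuclear respiratory chain subunits, 30 cytosolic ribosomal proteins and 22 ribosome biogenesis genes. At an unadjusted p under 0.05 they held 0, 1, 2, 0 and 4 genes. Several mitochondrially encoded transcripts were lowest in 24 h replicate 2, such as MT-ND1 with 298 and 86.4 TPM at 24 h, against 333 and 208 TPM at 0 h. Ribosomal proteins lay close to 0 change, RPS6 with 2518 and 2664 TPM at 24 h, against 2624 and 2551 TPM at 0 h. Interferon-stimulated and antigen presentation genes gave 4 falls out of 27, among them IFIT1, PSMB8 and PSMB9. The immunoproteasome subunit PSMB9 had 6.19 and 10.1 TPM at 24 h, against 18.3 and 21.7 TPM at 0 h (log2 fold change -1.23 ± 0.27, adjusted p = 0.0213). The 4 falls became 1, 1, 1 and 1 under the omissions, and IFIT1 was not called with TMM scaling (adjusted p = 0.0518). Of 8 caveola genes SDPR (cavin-2) fell, also under all 4 omissions, with 2.01 and 2.14 TPM at 24 h, against 17.4 and 24.3 TPM at 0 h (log2 fold change -2.81 ± 0.27, adjusted p = 0.000249), while CAV1 had 365 and 283 TPM at 24 h, against 519.9 and 393 TPM at 0 h and was not called.

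Markers of other cell types were counted beside these results. None of 9 tested fibroblast markers was called by limma (2 at an unadjusted p under 0.05), and the 12 written markers summed to 17.05 and 9.94 TPM at 24 h, against 10.4 and 9.35 TPM at 0 h, with DPT at 0 in all 4 libraries. No fibroblast marker exceeded 4.39 TPM in any of the 4 libraries, PDGFRA with 1.65 and 1.32 TPM at 24 h, against 0.602 and 0.228 TPM at 0 h and LUM with 1.65 and 0.813 TPM at 24 h, against 1.41 and 0.2902 TPM at 0 h. The 9 endothelial markers summed to 10.97 and 16.1 TPM at 24 h, against 2.64 and 2.69 TPM at 0 h, nearly all of it ESAM, a junction adhesion molecule, with 9.45 and 14.6 TPM at 24 h, against 1.14 and 0.767 TPM at 0 h (log2 fold change 2.72 ± 0.43, adjusted p = 0.00374); CDH5 had 0 and 0.232 TPM at 24 h, against 0.374 and 0.228 TPM at 0 h, and VWF and KDR stayed lower still. The rise of ESAM was not called without 24 h replicate 2. The 13 leukocyte markers summed to 15.7 and 23.8 TPM at 24 h, against 13.8 and 25.6 TPM at 0 h, with CD3D, FCGR3A and TYROBP at 0 in all 4 libraries, and CD14 fell by 1.67 ± 0.29 log2 units (adjusted p = 0.00659). Erythroid and platelet markers summed to 0.711 and 0.836 TPM at 24 h, against 1.06 and 1.93 TPM at 0 h. Nerve and muscle markers, mainly TUBB3, summed to 300 and 311.6 TPM at 24 h, against 240.3 and 248.4 TPM at 0 h; RBFOX3 and MBP fell, MBP not with TMM scaling (adjusted p = 0.0897). The part of other cell types in the collagen, ESAM and other rises was not tested.

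Against earlier treated times, the comparison of 24 h with 6 h held all cultures under TGF-beta and so bears on what came after the first hours. It gave 102 rises and 35 falls, 0.481% and 0.165% of 21216 tested genes, and it shares the 24 h libraries with the comparison above. IGFL1 had 211 and 715 TPM at 24 h, against 12.8 and 9.04 TPM at 6 h (log2 fold change 5.05 ± 0.63, adjusted p = 0.00725), so at 6 h it was already above its 0 h values, which are given above. MMP2 had 123 and 41.5 TPM at 24 h, against 12.7 and 2.08 TPM at 6 h (log2 fold change 3.48 ± 0.37, adjusted p = 0.00395), and ITGA11 had 74.9 and 49.5 TPM at 24 h, against 8.66 and 2.56 TPM at 6 h (log2 fold change 3.40 ± 0.51, adjusted p = 0.0136). COL1A1 had 197 and 66.6 TPM at 24 h, against 23.6 and 10.9 TPM at 6 h (log2 fold change 2.75 ± 0.50, adjusted p = 0.0341), and TAGLN had 669.6 and 591 TPM at 24 h, against 164 and 57.6 TPM at 6 h (log2 fold change 2.68 ± 0.49, adjusted p = 0.0341). In each of these the 24 h libraries lay above both 6 h libraries. SPOCK1 and COL22A1 rose too, SPOCK1 with 174 and 54.9 TPM at 24 h, against 7.65 and 5.49 TPM at 6 h (log2 fold change 3.72 ± 0.58, adjusted p = 0.017).

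Falls against 6 h included AGR2, GPX2, AKR1B10 and CDH1. AGR2 had 4.14 and 13.8 TPM at 24 h, against 332 and 287 TPM at 6 h (log2 fold change -5.15 ± 0.46, adjusted p = 0.00289), GPX2 had 11.1 and 53.8 TPM at 24 h, against 379 and 377 TPM at 6 h (log2 fold change -3.88 ± 0.56, adjusted p = 0.0114), and AKR1B10 had 488 and 622 TPM at 24 h, against 3456 and 2792 TPM at 6 h (log2 fold change -2.49 ± 0.40, adjusted p = 0.0183). At 6 h AGR2 and AKR1B10 lay within or close to the range of their 0 h values. CDH1 had 2.26 and 6.31 TPM at 24 h, against 13.6 and 28.5 TPM at 6 h (log2 fold change -2.09 ± 0.34, adjusted p = 0.0188), with 6 h values between those of 24 h and 0 h in both replicates. LAMB1, the laminin beta-1 chain, rose against 6 h, with 234 and 195 TPM at 24 h, against 101 and 93.8 TPM at 6 h, and had 216 and 195 TPM at 0 h, not called between 24 h and 0 h (adjusted p = 0.959). SNAI1 had 1.85 and 0.643 TPM at 0 h, 5.67 and 2.72 TPM at 6 h, 13.8 and 7.22 TPM at 12 h, then 12.3 and 8.102 TPM at 24 h. It was not called between 24 h and 6 h. The 24 h against 6 h counts depended on the libraries: they became 11 and 1 without 24 h replicate 1, 0 and 0 without 24 h replicate 2 (1080 and 371 at an unadjusted p under 0.05), 8 and 1 without 6 h replicate 1, and 30 and 20 without 6 h replicate 2. The all-gene median was 0.18 there and -0.01 with TMM scaling, which moved the split from 74.5% higher to 58.6% higher.

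**Figure D5:**
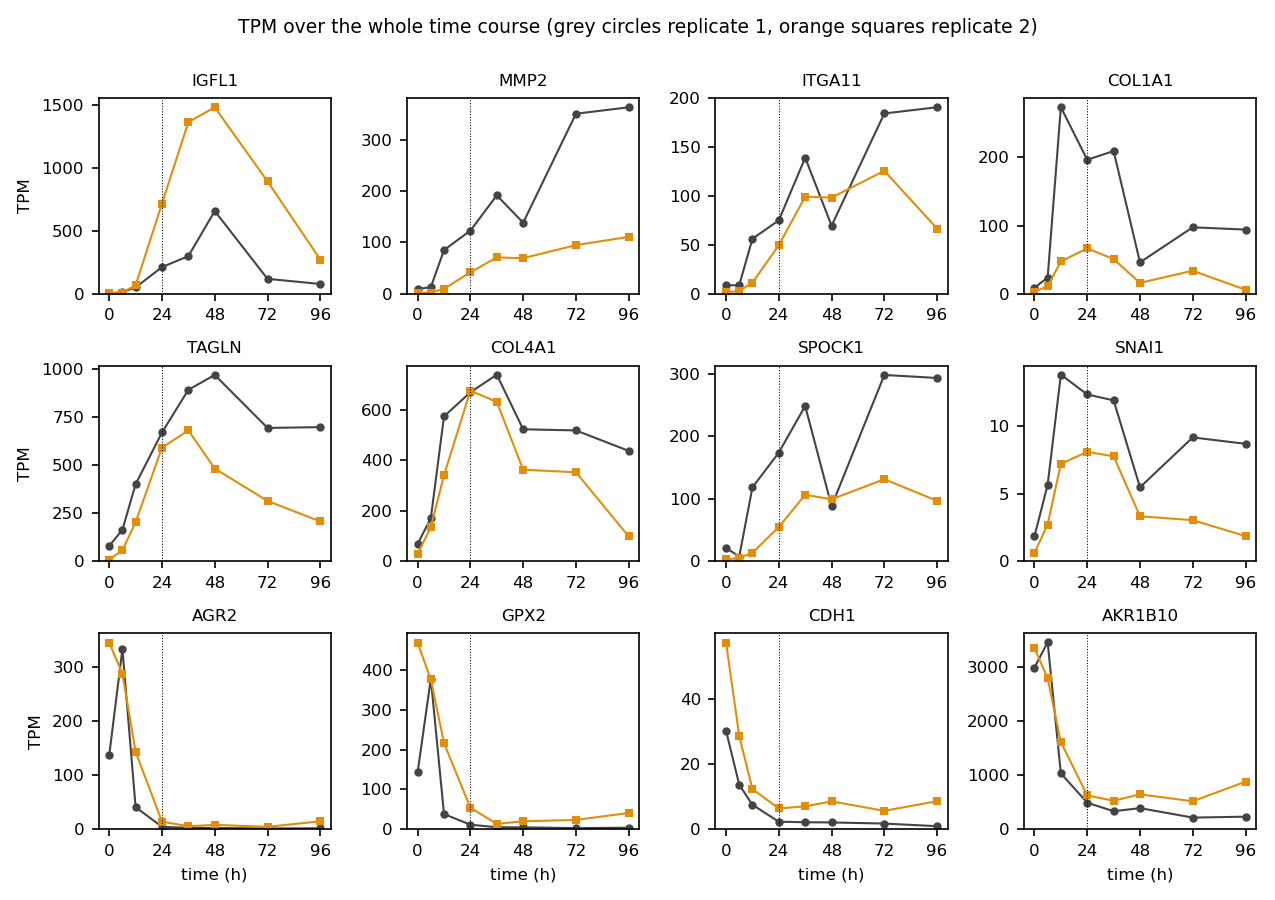
TPM over the whole course, 0 to 96 h on the x axis and a linear y axis from 0, for 12 genes, with a line for each replicate and a dotted line at 24 h. IGFL1, MMP2, ITGA11, COL1A1 and TAGLN were higher at 24 h than at 6 h in both replicates, and AGR2, GPX2, CDH1 and AKR1B10 were lower at 24 h than at 6 h.

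Between 24 h and 12 h almost nothing was called: 1 gene rose and 1 fell, 0.00471% each, with 228 and 311 genes at an unadjusted p under 0.05. The rise was AP003550.1, with 2.82 and 3.30 TPM at 24 h and listed at 0 in both 12 h libraries. The fall was AC019205.2, listed at 0 in both 24 h libraries, with 4.32 and 2.58 TPM at 12 h. COL4A1 had 69.2 and 29.6 TPM at 0 h, 172 and 136 TPM at 6 h, 575 and 341 TPM at 12 h, then 670.4 and 677 TPM at 24 h. AKR1B10 had 2988 and 3343 TPM at 0 h, 3456 and 2792 TPM at 6 h, 1030.4 and 1610.3 TPM at 12 h, then 488 and 622 TPM at 24 h. For CDH1 the values were 30.1 and 57.1 TPM at 0 h, 13.6 and 28.5 TPM at 6 h, 7.45 and 12.3 TPM at 12 h, then 2.26 and 6.31 TPM at 24 h. A missed threshold does not show that 24 h and 12 h were alike.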

How the data were processed

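RNA from A549 cells was taken with Trizol, made into libraries with the Illumina TruSeq RNA kit and sequenced on a HiSeq 2500, per the labels' protocols. The deposited values are TPM per gene and Bowtie and RSEM are named without version per the submitters' processing notes, while the sources used here give neither genome build nor annotation. The authors' TPM tables hold 1 column per time and replicate, and 0 columns belong to other series. Read totals are not given, so no count test was possible and the precision of a value is known only from the spread between libraries.

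RN7SL1, RN7SL2, RN7SL3, RN7SK, RMRP and RPPH1 were removed, each library was rescaled to 1e+06 TPM, and log2(TPM + 1) was taken. A gene was kept where 2 or more of the 16 libraries reached 1 TPM (21216 genes). limma 3.58.1 in R 4.3.3 fitted 1 mean per time and the replicate number as a block over all 16 libraries (7 residual degrees of freedom), with moderated two-sided tests, a mean-variance trend and Benjamini-Hochberg adjustment over all kept genes. The replicate numbers come from the labels, and fits with no block are given as alternatives. No pair of libraries was identical (highest correlation 0.987). The script was tested on simulated data. The simulated replicate difference had the form that the fit assumes, so it cannot show whether the pairing holds in these libraries.

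The 53 gene lists and the members were chosen with earlier results of these data known. Genes were named by rule (the largest called changes, the largest differences in TPM, up to 3 rises and 3 falls of each list, and a set of well-known EMT genes); other list members named in the text were picked after their values were seen. Alternatives were other pseudocounts, filters and scalings, no block, the 4 libraries alone and each library left out. Gene types and neighbours used GENCODE v29, and promoter sequences are RefSeq's on GRCh38.p14. Some genes are not reported here.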

Additional observations from a re-analysis of the deposited data

How the results depend on the processing

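At 24 h against 0 h, the 618 rises and 423 falls became 317 and 326 with the TPM as deposited, 804 and 355 with TMM scaling, 244 and 128 with no replicate block, 333 and 107 with no replicate block and TMM scaling, and 133 and 61 with the 4 libraries and the replicate block alone. Leaving out each of the 4 libraries gave 111 to 347 rises and 51 to 168 falls. Nothing in the labels ties libraries of the same number together. In 27 of 28 pairs of times the deviations of same-numbered libraries correlated above 0.1 (lowest 0.0734, and 0.342 for 24 h with 0 h). Pseudocounts of 0.1 and 5 gave 626 and 323, and 556 and 505. With no filter the counts were 413 and 335. No gene called in the main analysis was called in the opposite direction in any setting, and 595 and 322 were shared with TMM scaling. Of the 169 named genes, 155 kept their direction and their side of the threshold with TMM scaling, 82 with no replicate block, and 68 to 114 with a library left out. The log2 fold change of MYC, not called, changed sign to -0.00627 with the TPM as deposited, and ranged from -0.16 (without 24 h replicate 1) and -0.11 (without 0 h replicate 1) to 0.32 (without 24 h replicate 2).

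At 24 h against 6 h, the 102 rises and 35 falls became 38 and 10 with no filter, 56 and 22 as deposited, 2 and 0 with no replicate block (431 falls at an unadjusted p under 0.05), 3 and 1 with no replicate block and TMM scaling, and 0 and 0 with the 4 libraries alone by limma (2989 and 757 at an unadjusted p under 0.05). Rises numbered 160 with a 5 TPM filter and falls 77 with TMM scaling, and leaving out libraries gave 0 to 30 and 0 to 20. At 24 h against 12 h, the single rise and fall became 0 and 0 in limma with a pseudocount of 0.1 (236 and 273 unadjusted), with a 5 TPM filter (172 and 200), without replicate 2 of 36 h and 48 h (283 and 381) and with the 4 libraries alone (400 and 600). Rises numbered 0 as deposited (63 unadjusted) and 7 with no filter. Falls numbered 13 with no filter and 2 each with a pseudocount of 5 and with no replicate block. Leaving out libraries gave 0 to 1 of each. Depth is not known, so limits on low genes rest on the spread between libraries alone.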

Other observations

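Genes outside the lists moved as well, and those named here were picked after their values were seen. NPTX1, a neuronal pentraxin, had 238 and 148 TPM at 24 h, against 13.6 and 5.203 TPM at 0 h (log2 fold change 4.31 ± 0.36, adjusted p = 0.000141). PLEK2, a pleckstrin relative of the cell cortex, had 141 and 154 TPM at 24 h, against 14.6 and 7.52 TPM at 0 h (log2 fold change 3.69 ± 0.38, adjusted p = 0.00042), and DOCK2, a Rac activator of blood cells, had 48.8 and 55.996 TPM at 24 h, against 5.79 and 1.95 TPM at 0 h (log2 fold change 3.57 ± 0.38, adjusted p = 0.000435). MYOCD, myocardin, the SRF co-activator of smooth muscle, had 23.7 and 12.9 TPM at 24 h, against 3.49 and 0.497 TPM at 0 h (log2 fold change 2.84 ± 0.42, adjusted p = 0.00254), while its target ACTA2 was not called. The forkhead gene FOXS1 rose by 3.70 ± 0.35 log2 units (adjusted p = 0.00025), TSPAN2 rose by 4.005 ± 0.54 log2 units (adjusted p = 0.00155), and R3HDML had 25.8 and 37.7 TPM at 24 h, against 0.643 and 0.311 TPM at 0 h (log2 fold change 4.45 ± 0.42, adjusted p = 0.000249). LEFTY2, a TGF-beta family ligand, had 3.95 and 15.7 TPM at 24 h and was listed at 0 in both 0 h libraries. Among the falls, PDK4, a mitochondrial kinase that restrains pyruvate oxidation, had 2.67 and 11.3 TPM at 24 h, against 39.4 and 83.6 TPM at 0 h (log2 fold change -3.12 ± 0.74, adjusted p = 0.0317). NR0B1 (DAX1), an orphan nuclear receptor, had 4.16 and 4.18 TPM at 24 h, against 26.7 and 38.1 TPM at 0 h (log2 fold change -2.67 ± 0.24, adjusted p = 0.000202), KITLG, the ligand of KIT, fell by 2.55 ± 0.59 log2 units (adjusted p = 0.0276), and KRT4 had 0.125 and 0.441 TPM at 24 h, against 3.404 and 28.2 TPM at 0 h (log2 fold change -3.15 ± 0.63, adjusted p = 0.0142). In each of these genes the 24 h libraries lay on a single side of both 0 h libraries.

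By GENCODE v29 gene type, 27 of 1223 tested lincRNA genes rose (2.21%) and 13 fell (1.06%), and 14 of 1829 antisense genes rose (0.765%) and 12 fell (0.656%), against 2.91% and 1.99% over all tested genes. The non-coding RNAs named next were also picked after their values were seen. MEG3 and MEG8, imprinted transcripts of a shared locus, both rose, MEG3 with 74.6 and 63.6 TPM at 24 h, against 9.67 and 9.37 TPM at 0 h (log2 fold change 2.73 ± 0.37, adjusted p = 0.00167) and MEG8 with 32.4 and 26.7 TPM at 24 h, against 4.23 and 3.67 TPM at 0 h (log2 fold change 2.62 ± 0.35, adjusted p = 0.00148). LINC00941 had 43.3 and 35.7 TPM at 24 h, against 9.28 and 2.57 TPM at 0 h (log2 fold change 2.74 ± 0.32, adjusted p = 0.000763), and CTD-2066L21.3 had 51.4 and 37.9 TPM at 24 h, against 3.11 and 0 TPM at 0 h. RP11-674N23.1 fell, with 7.02 and 14.7 TPM at 24 h, against 43.2 and 63.97 TPM at 0 h (log2 fold change -2.26 ± 0.29, adjusted p = 0.00128).

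By GENCODE v29 positions, 157 of 605 genes that rose (26%) had another rising gene within 100 kb, and 115 of 416 genes that fell (27.6%) had another falling gene. Of 19167 genes that were not called, 11.2% lay within 100 kb of a rise and 7.02% of a fall. There were 27 stretches of at least 3 called genes with at most 100 kb from each called gene to the next, uncalled genes between them allowed, 8 of them all higher, 11 all lower and 8 mixed. They include the fibrinogen genes FGB, FGA and FGG, all lower, the IGFL cluster, all higher, and HNF4A with R3HDML and HNF4A-AS1. FTL, lower, lies beside the CGB genes, which were higher. Neighbours that are copies of each other or overlap can share reads, and strand-specific counting is not stated.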
